A study of Mus musculus with 9 samples.

Results

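Zinc finger genes whose mouse symbol is Zfp followed only by digits were followed on chromosomes 7, 13 and 17, which carry large arrays of such genes. The RefSeq table of assembly GRCm38.p6 lists 165 of them, 91 on chromosome 7, 33 on chromosome 13 and 41 on chromosome 17. Methylation was read at CpGs within 1000 bp of either end of the gene (the ends) and at CpGs inside the gene but outside those windows (the body), and only CpGs with at least 1 read in each of the 9 libraries were kept. Of the 165 genes, 129 had 5 or more such CpGs and were taken as members, 18 had 1 to 4 and 18 had none. The members comprised 77 genes on chromosome 7, 17 on chromosome 13 and 35 on chromosome 17, against 22399 genes with 5 or more such CpGs in the whole series.

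The cells were Abl.1, an immortalised B cell clone of strain 129S1/SvImJ x CAST/EiJ F1 and female sex. Every group is therefore the same single clone, and no untransformed B cell was measured. Reduced representation bisulfite sequencing (RRBS), which reads the CpG-rich fragments left by a restriction digest after unmethylated cytosines are converted, was run after 2 days without drug in medium with 1% DMSO (2 libraries), or with the drug 5-aza-dC (short for 5-aza-2'-deoxycytidine) at 0.2 µM (2 libraries), 2 µM (3 libraries) or 10 µM (2 libraries). Dead cells were removed by gradient centrifugation before extraction. The labels call the replicates library preparations, so the spread between them, and every p-value below, may measure technical error only.

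Most Zfp genes encode C2H2 zinc finger proteins, and many carry a KRAB domain that recruits the co-repressor Trim28 and, through it, the histone methyltransferase Setdb1 to silence retroelements. The genes arise by tandem duplication and lie in clusters. Methylation of CpG-rich promoters is generally linked to silencing, whereas the bodies of many genes are methylated whether or not the gene is silent. 5-aza-dC is a cytosine analogue that is built into DNA during replication and traps the maintenance methyltransferase Dnmt1, so that methylation is lost as cells divide. At high doses it is also toxic and can slow replication.

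The promoters of 3 members are printed as examples: a start with 8 CGs that was methylated, a start with 22 CGs that was unmethylated beside a methylated far end, and a CpG-dense start that stayed unmethylated. Whether the number of CGs sets the level was not tested. They were chosen after their values were seen. They come from RefSeq (GRCm38.p6), cover 250 bases before to 50 after a listed transcription start, run 5′ to 3′ on the gene's strand and carry every CG in capitals.
Zfp808: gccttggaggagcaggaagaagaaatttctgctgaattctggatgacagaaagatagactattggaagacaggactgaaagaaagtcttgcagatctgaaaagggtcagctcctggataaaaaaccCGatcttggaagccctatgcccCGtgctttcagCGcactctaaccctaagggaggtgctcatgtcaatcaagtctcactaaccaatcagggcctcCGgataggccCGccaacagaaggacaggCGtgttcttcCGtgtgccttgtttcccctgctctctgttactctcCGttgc
Zfp688: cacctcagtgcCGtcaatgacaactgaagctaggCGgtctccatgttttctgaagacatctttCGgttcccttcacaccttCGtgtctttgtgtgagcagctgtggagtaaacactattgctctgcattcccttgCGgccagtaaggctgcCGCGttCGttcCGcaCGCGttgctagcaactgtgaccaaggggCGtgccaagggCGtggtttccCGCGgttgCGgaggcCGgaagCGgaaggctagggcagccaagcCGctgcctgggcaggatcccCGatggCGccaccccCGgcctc
Zfp318: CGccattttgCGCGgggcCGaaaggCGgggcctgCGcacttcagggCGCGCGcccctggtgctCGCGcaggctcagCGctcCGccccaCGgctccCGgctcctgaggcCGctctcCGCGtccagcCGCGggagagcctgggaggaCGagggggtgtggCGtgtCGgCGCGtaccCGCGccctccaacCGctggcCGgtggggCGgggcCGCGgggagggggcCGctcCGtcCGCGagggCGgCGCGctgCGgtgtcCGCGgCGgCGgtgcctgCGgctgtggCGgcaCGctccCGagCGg

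The Zfp808 window lies at chr13:62129640-62129939 on the + strand and holds 8 CGs, of which 4 were read in every library. Their mean was 75% in DMSO and 31.2% with 0.2 µM, where the libraries stood at 37.5% and 25%, and was 75% with 2 µM and 78.1% with 10 µM. Only 8 to 24 reads per library lie behind these values, and the window was not tested on its own. The Zfp688 window lies at chr7:127421985-127422284 on the - strand, 1207 bases inside the gene's outermost listed coordinate, and holds 22 CGs, of which 6 were read in every library and averaged between 0% and 0.75% over the 4 groups. The Zfp318 window lies at chr17:46383516-46383815 on the + strand and holds 49 CGs, all 49 of them read in every library. Its 9 library levels ran from 0% to 1.38%, with at most 1187 reads per library. Zfp318 is required for the alternative processing that lets mature B cells make IgD. Over all 32851 promoters listed for the mouse the median was 7 CGs per window, against 13 for the 69 members whose start was under 5% methylated in DMSO, 17 for the 17 with a start at 5 to 50% and 8 for the 3 at 50% or above. The members counted here had 5 or more shared CpGs around the start, which was not asked of the 32851. That filter can by itself pick CpG-rich starts, so these medians do not compare like with like. The range was wide, from 2 to 49 CGs in the 69 and from 4 to 16 in the 3. Of these 3, the window used for Zfp541 lies 10070 bases from the gene's start.

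In DMSO the ends of the Zfp genes were mostly unmethylated and their bodies mostly methylated. Regions with 5 or more CpGs were available for 104 members at the ends and 64 in the body. The median level was 1.62% at the ends and 72.8% in the bodies, against 5.995% over 17526 ends and 73.3% over 12886 bodies of all genes. At the ends, 70 of 104 members (67.3%) were under 5%, a class that held 48.6% of all genes' ends, and 8 were at 50% or above. The 151 Zfp genes with such ends on other chromosomes had a median of 2.09%, with 56.3% of them under 5% and 20.5% at 50% or above, against 7.69% of the members and 26.9% of all genes at 50% or above. In the bodies, 28 of 64 members were at 80% or above and 10 were under 5%.

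The ends split by the side of the gene. For the 115 members whose strand is given by the promoter table, the window around the start had a median of 0.758% in DMSO over 89 members, and 69 of these (77.5%) were under 5%. The window around the far end had a median of 91.5%, but RRBS read 5 or more CpGs there in only 13 members. The split was general: over all genes the median was 1.08% at 11896 starts, with 62.1% under 5%, and 72.7% at 1999 far ends. Zfp genes on other chromosomes had medians of 0.763% at 117 starts, with 67.5% under 5%, and 89.55% at 15 far ends. Among the members, the only starts at 50% or above were those of Zfp541, Zfp507 and Zfp808. The start of Zfp541 by its gene coordinates is 10070 bases from the start listed in the promoter table. With drug, 7 of the 89 starts were called lower than DMSO at 0.2 µM (28.2% of all 11896 starts tested), 2 with 2 µM (17.6%) and 1, Zfp541, with 10 µM (1.98%), by the test described further on. Zfp772 alone was called higher, with 2 µM (0.143% of all), and none with 0.2 µM (0.0672%) or 10 µM (0.0252%), where 1 start each had an unadjusted p under 0.05.

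**Figure D1:**
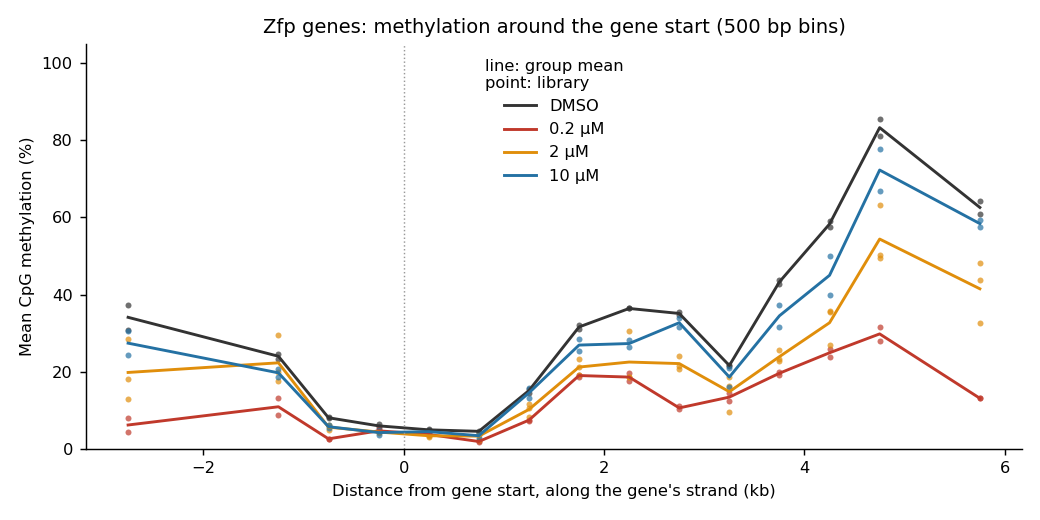
Mean CpG methylation (%, vertical axis) of the Zfp members in 500 bp bins by distance from the gene start in kb (horizontal axis, along the gene's strand); lines are group means, points are libraries, and bins with under 20 CpGs are left out. In DMSO the first 500 bp averaged 4.92% over 1595 CpGs of 85 genes and the bin from 4500 to 4999 bp averaged 83.3% over 76 CpGs of 10 genes.

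The plot of methylation around the start shows where along the genes the level rises. In DMSO the mean was 4.92% in the first 500 bp, 4.53% from 500 to 999 bp, 15.1% from 1000 to 1499 bp and 31.6% from 1500 to 1999 bp. With 0.2 µM the same bins averaged 3.72%, 1.89%, 7.43% and 19%. The groups lay close together near the start and further apart downstream of it. The bins hold different genes, since few genes are read along their length.

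For the 39 members with both regions, the body was above the ends in 31 in DMSO, and the median difference was 75.7 percentage points. It was 74.8 points in each DMSO library on its own. Of the 39, 29 lie on chromosome 7, where the median difference was 75.7 points, and 5 on each of the others, where it was 3.32 points on chromosome 13 and 92.9 on chromosome 17. Over all 8438 genes with both regions the median difference was 38.8 points, and the body was above the ends in a similar share of genes (78.4%, against 79.5% of the members). The 78 Zfp genes on other chromosomes with both regions had a median difference of 62.6 points, with the body above the ends in 80.8%. For 13 genes of the silencing pathway, listed further on, it was 76.4 points. With drug the median difference of the members was 24.7 points with 0.2 µM, 42.1 with 2 µM and 61.2 with 10 µM. The difference depends on which CpGs are kept: with at least 5 reads per CpG it was 68.1 points, and with at least 10 reads only 1.74 points.

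The highest bodies in DMSO were those of Zfp213 and Zfp952, at 100% in both libraries, Zfp575 and Zfp689. The widest differences were in Zfp213, Zfp689, Zfp592 and Zfp84, each with a body at or above 95.8% and ends near 0. In Zfp84 the 11 end CpGs had 0 methylated reads in both DMSO libraries, while the 18 body CpGs were at 91.7% and 100%. The order was turned round in 8 members, most of all in Zfp688, whose 5 end CpGs lay at 96.8% ± 4.56 (SD, n = 2) and whose 42 body CpGs lay at 15.6% ± 2.62. Of those 42 body CpGs, 36 are within 1000 bp of a listed start inside the gene. Zfp53, Zfp580 and Zfp771 followed at differences of 10.8 points or less, and the 2 DMSO libraries of Zfp53 themselves stood at 14.2% and 10.1% at the ends.

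Unmethylated bodies often held a start of their own. Of the 19 bodies under 20% in DMSO, 17 belong to genes in the promoter table, and 14 of these 17 had CpGs within 1000 bp of a listed start. Among bodies at 20 to 80% this was so for 5 of 15, and among bodies at 80% or above for 1 of 24. Zfp52, Zfp229 and Zfp959 on chromosome 17, whose bodies had 0 methylated reads in both DMSO libraries, had all their 9, 14 and 20 body CpGs within such a window. Zfp235 on chromosome 7 was the fourth of the lowest bodies, with 21 CpGs and no CpG near a listed start. For Zfp52 the smallest library held 9 reads, which allows a level of up to 33.3%, whereas for Zfp229 and Zfp959 the libraries without a methylated read held at least 114 and 113 reads. These limits cover counting error only, since PCR copies are not separate molecules.

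**Figure D2:**
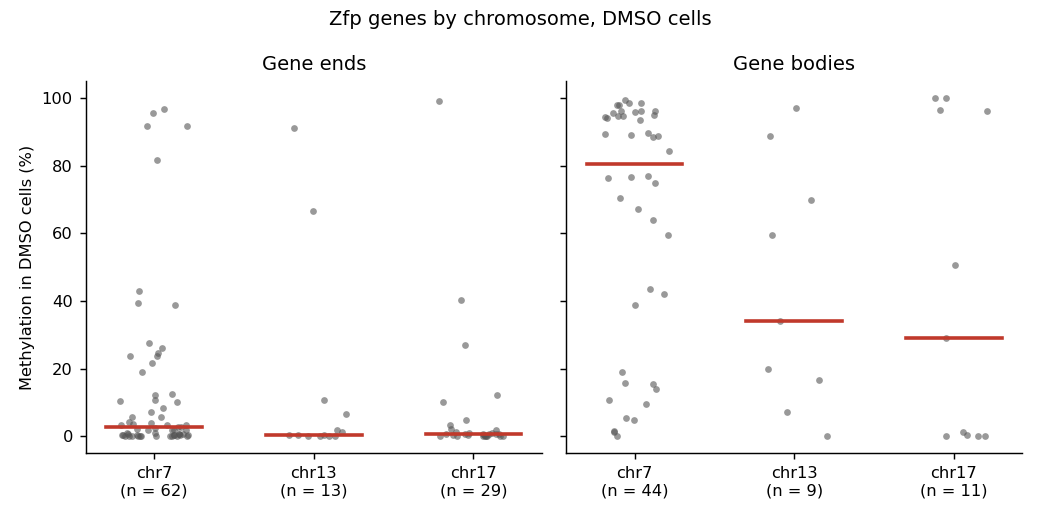
Methylation level in DMSO cells (%, vertical axis, mean of 2 libraries) of each Zfp member (point) at its ends (left) and in its body (right), by chromosome; red lines are medians. The medians were 2.72%, 0.554% and 0.727% at the ends and 80.6%, 34.1% and 29.1% in the bodies for chromosomes 7, 13 and 17.

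The chromosomes were compared in DMSO as a description, without a test. At the ends the median was 2.72% over 62 members on chromosome 7, 0.554% over 13 on chromosome 13 and 0.727% over 29 on chromosome 17. The libraries gave 2.23% and 2.74% for chromosome 7, above their values for the other two chromosomes (0.370% to 0.784%). On chromosome 17 the end of Zfp820 was the only 1 of 29 at 50% or above, and on chromosome 13 those of Zfp366 and Zfp808 were the only 2 of 13.

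In the bodies the median was 80.6% over 44 members on chromosome 7, 34.1% over 9 on chromosome 13 and 29.1% over 11 on chromosome 17. Bodies lay at both extremes: on chromosome 17, 5 bodies were at or under 1.29% and 4 were at or above 96.2%. With 10 CpGs required per region the medians were 75.9%, 59.5% and 50.7%, and with 1 CpG enough they were 89.3%, 59.5% and 96.3%. With at least 5 reads per CpG chromosome 7 lay between the others, at 9.62%, against 0.92% on chromosome 13 and 53.0% on chromosome 17. The order of the chromosomes in the bodies thus changed with the CpGs kept.

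Levels were also set out by position in a cluster, as a description. Taking a run as 4 or more Zfp genes with gaps of at most 500 kb, 102 members lay in 12 runs and 27 outside. The median end was 1.16% in runs and 2.66% outside, and the median body 72.8% and 73.4%. The largest run, 23 Zfp genes from Zfp160 to Zfp13 on chromosome 17, had a median end of 0.727% over 18 members. Neighbouring ends are not all separate measurements: Zfp942 and Zfp943 share all 22 end CpGs, Zfp78 and Zfp28 all 29, Zfp668 and Zfp646 91, Zfp784 and Zfp580 31, and Zfp944 and Zfp758 15.

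**Figure D3:**
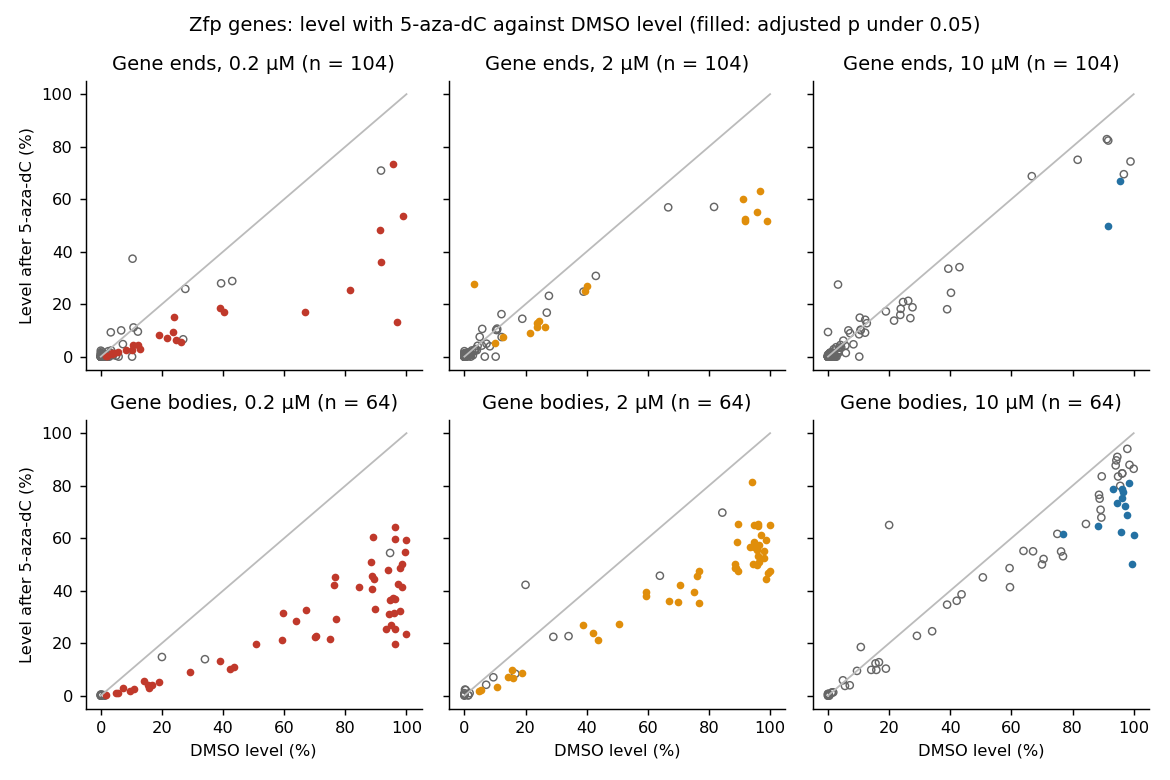
Level of each Zfp member with 5-aza-dC (%, vertical axis) against its level in DMSO (%, horizontal axis) at the ends (top) and in the bodies (bottom), by dose; the grey line marks equal levels and filled points passed the test at an adjusted p under 0.05. At 0.2 µM 26 of 104 ends and 53 of 64 bodies were called lower, and at 10 µM 2 and 13.

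With 5-aza-dC fewer ends than bodies of the Zfp genes were called lower than DMSO, and the most of each were called at 0.2 µM. Group means at 0.2 µM were below DMSO in 71 of 104 ends and 60 of 64 bodies. A region was called changed where limma, with weights from the read depth, gave an adjusted p (Benjamini-Hochberg over all tested regions of all genes) under 0.05; changes are fitted differences between group means in percentage points. At the ends, 26 of 104 members were called lower than DMSO at 0.2 µM, where 44.2% of all genes' ends were called lower. The count was 15 at 2 µM (28.1% of all) and 2 at 10 µM (2.60% of all). None was called higher at 0.2 µM (0.0856% of all) or at 10 µM (0.0456% of all), where 1 member each had an unadjusted p under 0.05 for a rise, and 1 was called higher at 2 µM (0.183% of all). In the bodies, 53 of 64 members were called lower at 0.2 µM (90.7% of all bodies), 47 at 2 µM (79.6%) and 13 at 10 µM (27.3%). No body was called higher at any dose, and none had an unadjusted p under 0.05 for a rise (0.00776%, 0.0543% and 0.0621% of all bodies were called higher).

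The count of ends at 0.2 µM depends on the CpGs kept: it was 12 with levels weighted by reads, 8 with at least 5 reads per CpG, 0 with at least 10, 12 with windows of 500 bp and 50 with windows of 2000 bp. The bodies called at 0.2 µM numbered 17 with at least 5 reads per CpG and 1 with at least 10. These filters cut the shared CpGs from 1096949 to 420939 and 155762. How many members kept enough CpGs to be tested is not given here, nor is the share of all genes called. The lower counts under these filters therefore do not show that the falls were lost. Without the first DMSO library, the deepest of the 9, the counts of ends fell to 10, 6 and 0 and those of bodies to 45, 33 and 3. Without the second they were 9 for ends at 2 µM, 0 for ends at 10 µM and 7 for bodies at 10 µM. Without the first 10 µM library the bodies called at 10 µM were 7 too, and without any 1 library of 0.2 or 10 µM no end was called at 10 µM. When changes were measured against the median change of all regions, the split became 16 lower and 43 higher at the ends for 0.2 µM, 14 and 24 for 2 µM, and 2 and 0 for 10 µM. In the bodies it became 8 and 24, 8 and 22, and 0 and 15. A member higher on that scale fell by less than the median region, rose, or did not move. A region with less methylation in DMSO than the median fall cannot come out lower. The share of all regions on each side is not given here, so these counts are not a result about the members.

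The median change of the members at the ends was -0.758, -0.274 and -0.229 points from the lowest to the highest dose, beside -3.13, -1.39 and -0.451 over all genes. In the bodies it was -34.9, -26.1 and -10.1 points, beside -43.0, -28.3 and -11.7. Calls were then counted by starting level. At 0.2 µM the ends called lower were 5 of the 70 members under 5% in DMSO (7.14%, against 7.33% of all genes' ends in that class), 14 of the 26 at 5 to 50% (53.8%, against 68.1%) and 7 of the 8 at 50% or above (87.5%, against 89.1%). For bodies at 50% or above, 38 of 39 members were called lower at 0.2 µM (97.4%, against 98.0%). At 10 µM, 2 of the 8 ends at 50% or above were called (25%, against 9.33%), and none of the 15 bodies at 5 to 50% (against 10.5%). No difference between these shares was tested.

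By chromosome, ends called lower at 0.2 µM numbered 20 of 62 on chromosome 7, 3 of 13 on chromosome 13 and 3 of 29 on chromosome 17. At 2 µM they numbered 12, 1 and 2, and at 10 µM both were on chromosome 7. Bodies called lower numbered 41 of 44, 6 of 9 and 6 of 11 at 0.2 µM, 38, 4 and 5 at 2 µM, then 10, 1 and 2 at 10 µM. At 0.2 µM, Zfp genes on other chromosomes gave 46 of 151 ends (30.5%) and 97 of 103 bodies (94.2%). The shares were 46.7% and 91.6% for the other genes on chromosomes 7, 13 and 17, and 44.2% and 90.7% for all genes.

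More bodies than ends were called between the doses. In DMSO 70 of 104 ends were under 5%, against 10 of 64 bodies. Among those at 80% or above in DMSO, the 7 ends had medians of 48.2%, 54.9% and 74.3% at 0.2, 2 and 10 µM. The 28 bodies had 41.3%, 56.0% and 78.2%. The part of the starting level in the difference between ends and bodies was not tested. Between 0.2 and 2 µM, 23 of 64 bodies were called higher at 2 µM (53.8% of all bodies) and none lower (0.815% of all). Between 2 and 10 µM, 22 were called higher at 10 µM (41.0% of all), and between 0.2 and 10 µM 42 were (79.5% of all), again with none lower (0.0543% and 0.0310% of all) and none with an unadjusted p under 0.05. Group means ran in the order 0.2, 2, 10 µM and DMSO from low to high in 47 of 64 bodies. Among bodies at 80% or above in DMSO, the 3 doses ran in that order in 22 of 28 members and in 4421 of 5059 bodies of all genes. In 27 of the 64 every 0.2 µM library was below every 2 µM library, and in 57 every 0.2 µM library was below both DMSO libraries. The median body stood at 25.5% and 23.4% in the 0.2 µM libraries, at 40.6%, 41.1% and 36.0% at 2 µM, and at 54.7% and 52.9% at 10 µM, so that the libraries of the 3 doses did not overlap. Without the first 10 µM library the count between 2 and 10 µM was 8 (and 4 at the ends between 0.2 and 10 µM), and without the second 0.2 µM library that between 0.2 and 2 µM was 14.

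At the ends, 7 members were called higher at 2 than at 0.2 µM (8.87% of all ends) and 9 higher at 10 than at 0.2 µM (24.3% of all). Only Zfp628 and Zfp366 were called higher at 10 than at 2 µM (4.15% of all). Zfp541 alone was called lower at 2 than at 0.2 µM (0.822% of all), and none was lower at 10 than at 2 µM (0.0285% of all) or than at 0.2 µM (0.0913% of all), with 0 and 1 members at an unadjusted p under 0.05. All these counts at the ends are small, and the calls of Zfp628 and Zfp366 between 2 and 10 µM were lost under 13 of 20 and 12 of 18 alternatives, any 1 DMSO, 0.2 µM or 10 µM library left out among them.

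**Figure D4:**
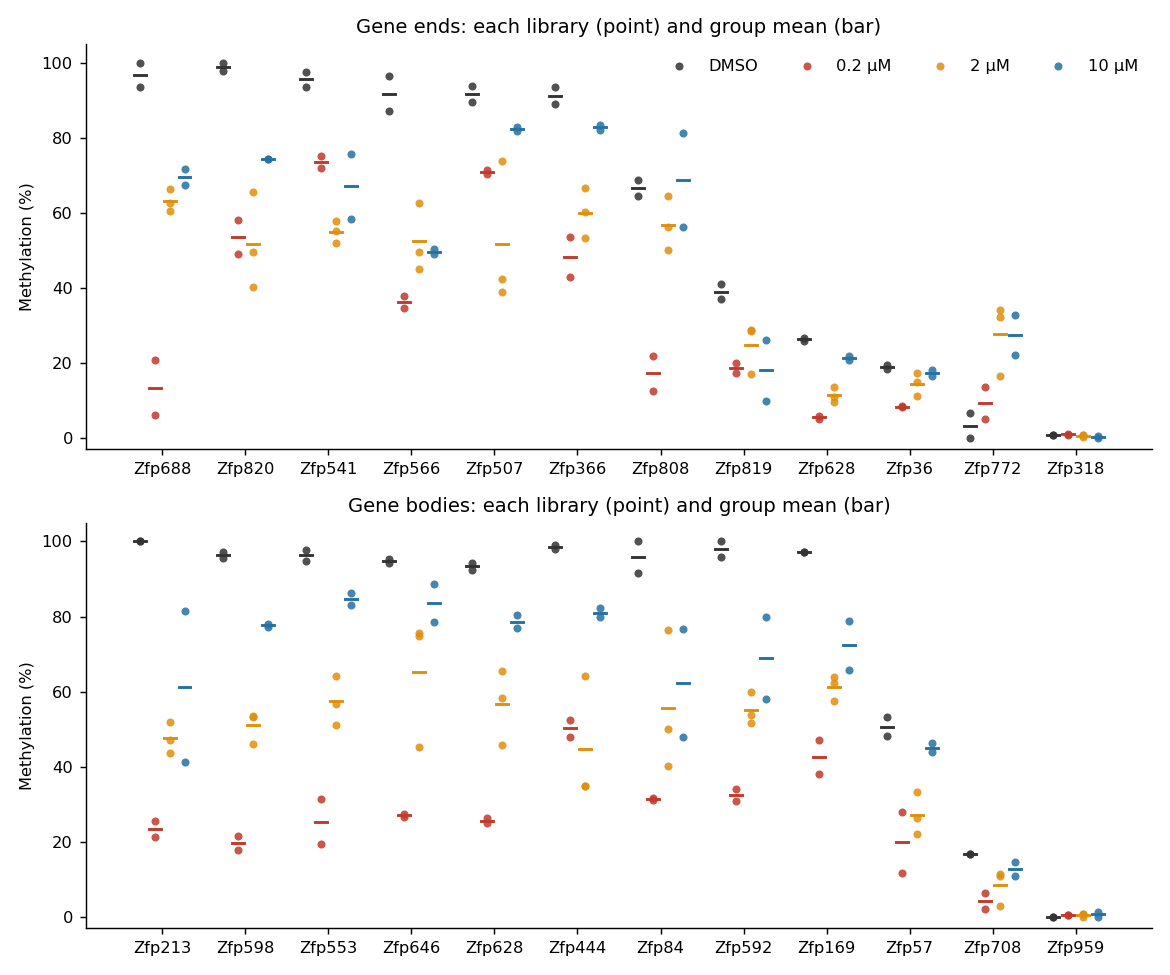
Methylation (%, vertical axis) of 12 Zfp members at the ends (top) and 12 in the body (bottom); points are libraries, bars are group means, and colours are the groups. Zfp688 lost most at 0.2 µM and was back between 60.5% and 71.7% at the higher doses, whereas the ends of Zfp541 were lowest at 2 µM.

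Methylated ends were lost to different depths by dose. Zfp688 had 5 end CpGs, at 93.6% and 100% in the DMSO libraries, 20.7% and 6% at 0.2 µM, 62.7%, 66.4% and 60.5% at 2 µM, then 71.7% and 67.3% at 10 µM. No 0.2 µM library came near any other library. The fall at 0.2 µM was 83.2 points (change -83.2 ± 6.5, SE; limma adjusted p = 0.00018), and 2 µM stood 51.7 points above 0.2 µM (adjusted p = 0.0104). The CpGs lie at the far end of the gene, at chr7:127418963-127423241 on the - strand, and its start, printed above, was unmethylated throughout.

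Zfp541 encodes a germ cell protein needed for male meiosis. Its 36 end CpGs span chr7:16061644-16061855, around the first base of the gene as listed. They stood at 97.6% and 93.5% in DMSO, 72.0% and 75.1% at 0.2 µM, 51.9%, 55.0% and 57.9% at 2 µM, then 58.5% and 75.6% at 10 µM, so that the 2 µM libraries were the lowest and the 10 µM libraries stood far apart. Each dose was called lower than DMSO (limma changes -22.2 ± 4.2, -40.7 ± 4.1 and -28.9 ± 4.5, adjusted p = 0.0042, 0.00048 and 0.025). The 2 µM group was 18.5 ± 4.7 points below the 0.2 µM group (change -18.5, adjusted p = 0.0499), a call at the edge of the threshold. The call at 10 µM was lost without any 1 of the DMSO, 0.2 µM or 10 µM libraries.

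Zfp507 was also lowest at 2 µM, with more spread. Its 29 end CpGs span chr7:35802661-35802883, just inside the start of the gene. They stood at 93.9% and 89.4% in DMSO, 71.5% and 70.3% at 0.2 µM, 42.5%, 73.8% and 39.0% at 2 µM, then 82.8% and 81.8% at 10 µM. Only the fall at 2 µM was called (change -42.6 ± 7.4, limma adjusted p = 0.0044; 0.09 at 0.2 µM and 0.64 at 10 µM), although the second 2 µM library sat above both 0.2 µM libraries and far from the other 2 µM libraries. Without the first DMSO library the call was lost.

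Zfp820 on chromosome 17 carried 6 CpGs from position 21815992 to 21816105, beyond its far end. They stood at 97.9% and 100% in DMSO, 49.0% and 58.0% at 0.2 µM, 40.2%, 65.5% and 49.5% at 2 µM, then 74.2% and 74.4% at 10 µM. The 0.2 and 2 µM libraries overlapped and all lay below DMSO (changes -47.4 ± 9.0 and -45.5 ± 5.6, limma adjusted p = 0.00398 and 0.00102), and the call at 0.2 µM was lost without the first 0.2 µM library. Zfp566 had 11 CpGs at its far end, at 87.1% and 96.4% in DMSO, 34.7% and 37.8% at 0.2 µM, 49.6%, 45.0% and 62.7% at 2 µM, then 48.9% and 50.3% at 10 µM. It was called lower at all 3 doses (adjusted p = 0.00043, 0.0018 and 0.026), with the 10 µM libraries inside the range of the 2 µM libraries. The 10 µM call was lost without any 1 of the DMSO, 0.2 µM or 10 µM libraries.

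On chromosome 13, Zfp366 (DC-SCRIPT), a co-repressor best known from dendritic cells, and Zfp808 had the only ends at 50% or above. The 10 end CpGs of Zfp366 stood at 89.0% and 93.4% in DMSO, 53.5% and 43.0% at 0.2 µM, 66.7%, 60.2% and 53.3% at 2 µM, then 82.2% and 83.5% at 10 µM. The falls at 0.2 and 2 µM were called (changes -41.3 ± 4.8 and -31.7 ± 4.1, limma adjusted p = 0.00059 and 0.0012), and its body followed them closely, from 88.7% to 45.7%, 48.7% and 76.5%. The 8 end CpGs of Zfp808 stood at 64.6% and 68.8% in DMSO, 21.9% and 12.5% at 0.2 µM, 56.2%, 50% and 64.4% at 2 µM, then 56.2% and 81.2% at 10 µM. Only 0.2 µM was called (change -48.3 ± 8.9, adjusted p = 0.0035), and both its libraries lay far below all the others.

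Of the 26 ends at 5 to 50% in DMSO, 18 had their lowest group mean with 0.2 µM, 4 with 2 µM and 4 with 10 µM. The 73 end CpGs of Zfp628 stood at 26.7% and 25.8% in DMSO, 5.05% and 5.93% at 0.2 µM, 9.60%, 10.8% and 13.7% at 2 µM, then 21.8% and 20.8% at 10 µM, without overlap between any 2 groups. Most of the methylation lay at its far end, where 26 CpGs averaged 72.8% in DMSO. Zfp296, with 46 CpGs, went from 24.6% to 6.41%, 13.5% and 20.8%. Among the ends at 50% or above, Zfp575 had only 5 end CpGs and as few as 5 reads in a library, at 73.3% and 90% in DMSO and 20% and 31.1% at 0.2 µM. That fall was called (change -52.9 ± 13, limma adjusted p = 0.013) and was lost without either DMSO library.

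Among the members with a known role, Zfp36, which encodes tristetraprolin, an mRNA decay factor with another kind of zinc finger, had 53 end CpGs at 18.4% and 19.5% in DMSO and 8.42% and 8.27% at 0.2 µM (change -10.5 ± 1.8, limma adjusted p = 0.0028). That call was lost with levels weighted by reads and with at least 5 reads per CpG. Its 2 µM libraries lay between (11.2%, 14.9% and 17.2%), and its 10 µM libraries (18% and 16.4%) were near DMSO. Zfp819, linked to retroelement repression, had 14 end CpGs at 37.0% and 41.0% in DMSO and 17.4% and 20.1% at 0.2 µM (change -21.1 ± 6.4, adjusted p = 0.029), a call that leaving out any DMSO or 0.2 µM library removed. Zfp143, an activator that binds many promoters, moved from 1.81% to 0.293% over 70 CpGs (change -1.58 ± 0.4, adjusted p = 0.014), the smallest of the called falls at 0.2 µM. That call was lost in 5 alternatives, the first DMSO library left out among them.

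The other genes described here did not pass the test at their ends at any dose, and except for Zfp110 their means in DMSO were under 5%. Zfp568, which represses a placental transcript of Igf2, was between 0% and 0.437% in every library over 47 CpGs. The 150 end CpGs of Zfp318 were between 0.0303% and 0.974%, and the 35 of Zfp346, a double-stranded RNA binding protein, between 0% and 0.524%. Zfp110 stayed between 8.50% and 13.5% in all 9 libraries over 31 CpGs, with no group apart. Zfp260 had 0% in 8 libraries and 18.8% in the first 10 µM library over 6 CpGs. With windows of 2000 bp the end of Zfp260 took in methylated CpGs and was called lower at 0.2 µM (change -31.7, limma adjusted p = 0.00573). In 13 of 104 ends both DMSO libraries were at 0, among them Zfp84, Zfp146, Zfp40, Zfp995 and Zfp260, so that no order exists between these. Zfp40 had 0 methylated reads in all 9 libraries over 9 CpGs, where the smallest library of 87 reads allows up to 3.45%.

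A single member gained methylation by the test. The 6 end CpGs of Zfp772 on chromosome 7 stood at 0% and 6.55% in DMSO, 13.6% and 4.98% at 0.2 µM, 34.2%, 32.1% and 16.5% at 2 µM, then 32.8% and 22.1% at 10 µM. All libraries at 2 and 10 µM were above all libraries of DMSO and 0.2 µM. The rise was called at 2 µM (change 24.8 ± 5.4, limma adjusted p = 0.012) and reached nearly the same size at 10 µM without passing (change 24.9 ± 7.1, adjusted p = 0.125). It rests on 27 to 88 reads per library, and it was lost with windows of 2000 bp and without the first DMSO or the second 2 µM library. Zfp974, named after its values were seen, had ends at 8.73% and 12% in DMSO and 43.2% and 31.4% at 0.2 µM over 18 CpGs, which did not pass (change 25.02 ± 9.2, adjusted p = 0.061).

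The largest falls in the bodies were in genes that were almost fully methylated in DMSO. Zfp598, a ubiquitin ligase that marks collided ribosomes, had 29 body CpGs at 97.1% and 95.6% in DMSO, 17.7% and 21.5% at 0.2 µM, 46.1%, 53.3% and 53.6% at 2 µM, then 77.2% and 78.1% at 10 µM, with no overlap between groups. It was lower at each dose (changes -76.6 ± 2.3, -45.8 ± 2.4 and -19.0 ± 3.1, limma adjusted p = 3.3e-08, 1.1e-06 and 0.0039). Its ends were at 3.50% in DMSO. Zfp213 had 10 body CpGs at 100% in both DMSO libraries, 25.4% and 21.3% at 0.2 µM, 43.8%, 52.0% and 47.1% at 2 µM, then 81.5% and 41.1% at 10 µM. The 10 µM libraries of Zfp213 differed by more than the doses did, and its fall there (change -27.1 ± 7.2, adjusted p = 0.022; plain difference of the means -38.7) was lost without either DMSO library.

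Zfp553, Zfp646 and Zfp628 completed the 5 largest body falls at 0.2 µM. The body of Zfp553 went from 96.3% ± 2.18 (SD, n = 2) to 25.3% ± 8.39, that of Zfp646 from 94.9% ± 0.804 to 27.0% ± 0.517 and that of Zfp628 from 93.4% ± 1.28 to 25.6% ± 0.852. At 10 µM they stood at 84.7%, 83.5% and 78.7%. All 3 falls at 0.2 µM kept their call under every alternative that could be computed (19, 18 and 19 of them). In Zfp628 the ends and the body thus moved together at different levels.

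At 2 µM the largest body falls were in Zfp213, Zfp575, Zfp444, Zfp579 and Zfp598. The fitted falls of Zfp444 at 0.2 and 2 µM were of the same size (changes -49.1 at both), and those of Zfp575 and Zfp579 were larger at 2 µM. Neither of these 2 differences between the doses was called (limma adjusted p = 0.421 and 0.115). The plain differences from DMSO of Zfp579 were -28.6 at 0.2 µM and -30.6 at 2 µM. The 42 CpGs of Zfp444 stood at 99.1% and 98.0% in DMSO, 52.5% and 47.9% at 0.2 µM, 34.7%, 64.2% and 34.8% at 2 µM, then 79.9% and 82.2% at 10 µM. The 2 µM libraries fell on both sides of the 0.2 µM libraries. Zfp575 had 8 body CpGs at 98.8% and 100% in DMSO, 62.0% and 47.2% at 0.2 µM, 49.4%, 43.3% and 47.7% at 2 µM, then 75.3% and 25% at 10 µM. The body of Zfp579 stood at 88.3% and 90% in DMSO and at 100%, 40.6% and 35% at 2 µM, where the first library held few reads; the fitted change of -47.4 ± 9.8 (limma adjusted p = 0.0016) was -30.6 as a plain difference and was lost with equal weights and without the first DMSO library.

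At 10 µM the 5 largest of the 13 body falls were in Zfp84, Zfp575, Zfp592, Zfp213 and Zfp169. Zfp169 had 18 body CpGs at 97.1% and 97.2% in DMSO, 47.2% and 38.0% at 0.2 µM, 57.5%, 62.4% and 64.0% at 2 µM, then 78.9% and 65.8% at 10 µM. Its change at 10 µM was -24.1 ± 4.5 points (limma adjusted p = 0.0065), and like the other 4 it was lost without the first DMSO library. In Zfp84 and Zfp592 the 10 µM libraries stood far apart, at 76.6% and 47.9% and at 58.0% and 80%.

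Zfp57, which keeps methylation at imprinted loci in the embryo, had no end region with enough CpGs. The gene spans chr17:37001163-37010729 on the + strand and has 2 listed starts inside its body. All 10 of its body CpGs are within 1000 bp of a listed start. They stood at 53.3% and 48.1% in DMSO, 27.9% and 11.7% at 0.2 µM, 22%, 26.3% and 33.3% at 2 µM, then 46.2% and 43.9% at 10 µM. The body was called lower at 0.2 µM (change -29.9 ± 6.1, limma adjusted p = 0.00095) and at 2 µM (change -24.0 ± 6.8, adjusted p = 0.0086), and the call at 2 µM was lost without the first DMSO library. The 10 µM libraries lay just under DMSO (adjusted p = 0.55). Zfp708, another repressor of retroelements, had 12 body CpGs at 16.7% in both DMSO libraries and 2.08% and 6.36% at 0.2 µM (change -12.1 ± 3.7, adjusted p = 0.011). Of these 12, 10 are within 1000 bp of a listed start, and the call was lost without either DMSO library.

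How much methylation was left was read in the 28 members whose body was at 80% or above in DMSO. They kept a median of 44.7%, 58.8% and 82.9% of their DMSO level from the lowest to the highest dose, beside 34.0%, 56.2% and 78.8% for the 5059 bodies of all genes chosen in the same way. The 52 such Zfp bodies on other chromosomes kept 41.9%, 59.2% and 80.9%. Since the DMSO level both chose the regions and divides the ratio, these shares are descriptions. Single members ranged widely at 0.2 µM, from 19.6% methylation in Zfp598 to 64.2%. Of the 28 members, 23 were lowest at 0.2 µM and 5 at 2 µM, beside 4579 and 453 of the 5059 bodies of all genes. The 52 Zfp bodies on other chromosomes gave 39 and 13. The 7 member ends at 80% or above kept 52.9%, 57.5% and 75.1%. Of these 7, 3 were lowest at 2 µM, beside 844 of the 2512 such ends of all genes.

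A list of 25 genes of the silencing pathway that KRAB zinc finger proteins use gave 20 ends and 16 bodies with enough CpGs. At the ends 4, 1 and 0 were called lower at 0.2, 2 and 10 µM, and in the bodies 12, 12 and 5. As shares these are 20%, 5% and 0% of the ends and 75%, 75% and 31.2% of the bodies, beside 44.2%, 28.1% and 2.60% of all ends and 90.7%, 79.6% and 27.3% of all bodies. The ends of Trim28 averaged 0.505% in DMSO over 21 CpGs and those of Uhrf1, which guides Dnmt1 to replicated DNA, 3.91% over 68. The Uhrf1 ends were called lower at 0.2 µM (change -2.48, limma adjusted p = 0.021). The 9 end CpGs of Setdb1 averaged 0.694% in DMSO and 4.17%, 6.17% and 11.1% at the 3 doses in rising order. No rise of Setdb1 was called, and its 10 µM libraries stood at 0% and 22.2%. The body of Dnmt1 went from 51.3% in DMSO to 14.4%, 29.1% and 38.4%, the dose order seen in the Zfp bodies. Ends of B lineage genes were looked at only to check the cell type: those of Ebf1 averaged 0.191% in DMSO over 34 CpGs and those of Cd79b 0.625% over 5.

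The libraries held 8590883 to 16495535 reads over 1531208 to 2053530 CpGs, and 1096949 CpGs were read in all 9. In the member regions the median depth was 6 to 13 reads per CpG and library. With 10 reads, of which 5 are methylated, a single CpG has a 95% interval of 23.7% to 76.3% (Wilson), so values are given over regions. Over all shared CpGs of intermediate methylation read at least 10 times in both libraries, squared differences between replicates of a group averaged 1.10 to 1.17 times what counting alone would give. At the CpGs in and around the members the ratio ran from 0.911 for the DMSO pair to 1.71 for the 10 µM pair. The first DMSO library was the deepest and the second 10 µM library the shallowest, and the part of depth in the differences between groups was not tested.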

How the data were processed

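Per the file layout, each of the 9 deposited tables gives chromosome, position, methylated over total reads as text, and a score that restates the methylated share on a scale of 0 to 1000; the authors' score was not used further. The genome build is mm10, per the submitters' processing notes; the aligner is not given in the sources used here. Of 1015 CpGs in member promoter windows, 1015 fell on a CG of the GRCm38.p6 sequences. Lines of odd width (1 to 2 per library) and repeated positions (18 to 68) were dropped. A CAST/EiJ variant at a CpG can read as unmethylated, which was not tested.

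A region level is the unweighted mean over shared CpGs. limma 3.58.1 (R 4.3.3) fitted 4 group means to all regions with 5 or more CpGs of 49554 genes, with binomial precision weights, a variance trend on depth and a variance floor of 1, two-sided. On simulated data with 200 changed ends per dose in 17526 (change -1.5 in log odds), 65 (0.2 µM), 90 (2 µM) and 64 (10 µM) were called, all with the right sign, and 4, 2 and 3 unchanged ends. Of 200 changed bodies in 12886, 74, 83 and 63 were called, with 2, 5 and 0 unchanged bodies. Regions of low level were left unchanged there, and far fewer regions changed than were called at 0.2 and 2 µM here. The simulated shares therefore do not give the power of the test in these data. Replicate numbers did not pair samples (correlations -0.0263 to 0.0201). The members and lists were chosen with earlier results of these data known. Named genes: a role list, the highest and lowest 4 DMSO levels, the 5 largest called changes per dose, the 4 widest differences of body and ends, and members called between doses where 5 or fewer. Promoters were to be those of the largest falls at 2 µM, but these hold no CpG read in all libraries, so others were printed. Classes by protein sequence were not analysed here. Python 3.11.15 was used for the tables.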

Additional observations from a re-analysis of the deposited data

How the results depend on the processing

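Of 500 alternative values of the counts and medians, 323 stayed within 1.5 times the count, or within the spread between libraries for a median, and 177 did not. For levels in DMSO that spread is the SD of only 2 libraries. It was as small as 0.0124 points for body minus ends and 0.138 for bodies of chromosome 17. For a median change it is the SD of the median level. The 177 therefore include small shifts and do not measure robustness. Those that did not are given here, medians of levels in percent and changes in percentage points; the cause was not tested.

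With levels weighted by reads, ends lower than DMSO numbered 12 at 0.2 µM and 6 at 2 µM and ends higher at the higher dose numbered 2 for 2 against 0.2 µM and 4 for 10 against 0.2 µM. Regions higher than DMSO numbered 2 and regions lower at the higher dose numbered 0. Median ends changes were -0.361 at 0.2 µM and the DMSO median of ends was 1.88% on chromosome 7. Median bodies changes were -30.9, -22.7 and -6.16 at the 3 doses in rising order and the DMSO median of bodies was 20% on chromosome 13 and 28.9% on chromosome 17. Body minus ends was 77 points. With at least 5 reads per CpG, ends lower than DMSO numbered 8, 7 and 1 at the 3 doses in rising order and ends higher at the higher dose numbered 0 for 2 against 0.2 µM, 0 for 10 against 2 µM and 2 for 10 against 0.2 µM. Bodies lower than DMSO numbered 17 at 0.2 µM and 17 at 2 µM and bodies higher at the higher dose numbered 4 for 2 against 0.2 µM, 6 for 10 against 2 µM and 10 for 10 against 0.2 µM. Regions higher than DMSO numbered 0 and the median change of ends was -0.161 at 0.2 µM. In DMSO the chromosome medians of ends were 0.951% on chromosome 7, 0.328% on chromosome 13 and 0.292% on chromosome 17 and the median change of bodies was -6.4, -4.48 and -2.61 at the 3 doses in rising order. Chromosome medians in DMSO for bodies were 9.62% on chromosome 7, 0.92% on chromosome 13 and 53% on chromosome 17 and body minus ends was 68.1 points. With at least 10 reads per CpG, ends lower than DMSO numbered 0, 0 and 0 at the 3 doses in rising order and ends higher at the higher dose numbered 0 for 2 against 0.2 µM, 0 for 10 against 2 µM and 0 for 10 against 0.2 µM. Bodies lower than DMSO numbered 1, 0 and 0 at the 3 doses in rising order and bodies higher at the higher dose numbered 0 for 2 against 0.2 µM, 0 for 10 against 2 µM and 1 for 10 against 0.2 µM. Regions higher than DMSO numbered 0 and regions lower at the higher dose numbered 0. Median ends changes were -0.0591 at 0.2 µM and the DMSO median of ends was 0.477% on chromosome 7, 0.224% on chromosome 13 and 0.175% on chromosome 17. Median bodies changes were -0.422, -0.0238 and -0.119 at the 3 doses in rising order and the DMSO median of bodies was 0.699% on chromosome 7 and 0% on chromosome 13. Body minus ends was 1.74 points.

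With windows of 500 bp, ends lower than DMSO numbered 12, 7 and 1 at the 3 doses in rising order and ends higher at the higher dose numbered 2 for 2 against 0.2 µM, 0 for 10 against 2 µM and 4 for 10 against 0.2 µM. Regions lower at the higher dose numbered 0 and the median change of ends was -0.201 at 0.2 µM. In DMSO the chromosome medians of ends were 1.26% on chromosome 7 and 0.405% on chromosome 13 and the median change of bodies was -31.5, -20.1 and -6.43 at the 3 doses in rising order. Chromosome medians in DMSO for bodies were 69.5% on chromosome 7 and 22% on chromosome 17 and body minus ends was 70.1 points. With windows of 2000 bp, ends lower than DMSO numbered 50 at 0.2 µM and 30 at 2 µM and ends higher at the higher dose numbered 14 for 2 against 0.2 µM, 4 for 10 against 2 µM and 25 for 10 against 0.2 µM. Bodies lower than DMSO numbered 31 at 2 µM and the median change of ends was -2.78, -1.35 and -0.878 at the 3 doses in rising order. In DMSO the chromosome medians of ends were 9.9% on chromosome 7, 1.46% on chromosome 13 and 1.86% on chromosome 17 and the median change of bodies was -40.3 at 0.2 µM and -29.2 at 2 µM. Chromosome medians in DMSO for bodies were 86.6% on chromosome 7, 64.8% on chromosome 13 and 1.29% on chromosome 17 and body minus ends was 59.1 points. Relative to the median change, ends lower than DMSO numbered 16 at 0.2 µM and ends higher at the higher dose numbered 4 for 2 against 0.2 µM. Bodies lower than DMSO numbered 8, 8 and 0 at the 3 doses in rising order and bodies higher at the higher dose numbered 5 for 2 against 0.2 µM, 1 for 10 against 2 µM and 6 for 10 against 0.2 µM. Regions higher than DMSO numbered 128 and regions lower at the higher dose numbered 89. These too are given without the share of all regions on that scale. With equal weights, ends lower than DMSO numbered 1 at 10 µM and ends higher at the higher dose numbered 2 for 2 against 0.2 µM. Regions higher than DMSO numbered 2. With 1 CpG enough, ends higher at the higher dose numbered 0 for 10 against 2 µM and regions lower at the higher dose numbered 0. In DMSO the chromosome medians of ends were 3.29% on chromosome 7 and the median change of bodies was -42.5 at 0.2 µM and -30.6 at 2 µM. Chromosome medians in DMSO for bodies were 89.3% on chromosome 7, 59.5% on chromosome 13 and 96.3% on chromosome 17 and body minus ends was 81.4 points. With 10 CpGs per region, regions higher than DMSO numbered 0 and the median change of ends was -1.15 at 0.2 µM. In DMSO the chromosome medians of ends were 3.35% on chromosome 7 and the DMSO median of bodies was 75.9% on chromosome 7, 59.5% on chromosome 13 and 50.7% on chromosome 17. Body minus ends was 86.5 points.

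The replicate numbers did not pair the samples. With the number as a block, ends lower than DMSO numbered 0 at 10 µM and ends higher at the higher dose numbered 0 for 2 against 0.2 µM and 0 for 10 against 2 µM and regions lower at the higher dose numbered 0; no other count moved by over 1.5 times.

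Leaving out 1 library at a time gave these ranges. Ends lower than DMSO numbered 10 to 26, 6 to 14 and 0 to 2 at the 3 doses in rising order. Ends higher at the higher dose numbered 0 to 5 for 2 against 0.2 µM, 0 to 1 for 10 against 2 µM and 4 to 11 for 10 against 0.2 µM. Median ends changes were -0.932 to -0.588, -0.424 to -0.157 and -0.518 to -0.227 at the 3 doses in rising order. Chromosome medians in DMSO for ends were 2.23 to 2.74 on chromosome 7, 0.37 to 0.554 on chromosome 13 and 0.431 to 0.784 on chromosome 17. Bodies lower than DMSO numbered 45 to 52, 33 to 47 and 3 to 15 at the 3 doses in rising order. Bodies higher at the higher dose numbered 14 to 23 for 2 against 0.2 µM, 8 to 21 for 10 against 2 µM and 29 to 43 for 10 against 0.2 µM. Median bodies changes were -35.1 to -32.7, -29.2 to -21.1 and -10.1 to -9.2 at the 3 doses in rising order. In DMSO the chromosome medians of bodies were 76.8 to 82.7 on chromosome 7, 33.3 to 34.8 on chromosome 13 and 29 to 29.2 on chromosome 17. Regions higher than DMSO numbered 0 to 2, regions lower at the higher dose 0 to 3, and body minus ends ran from 74.8 to 75.7 points.

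Of 34 calls of named genes against DMSO, 16 were kept under every alternative that could be computed and 17 were lost under 1 or more. Relative to the median change, changes reversed to 1.5 (Zfp143 ends, 0.2 µM), 1.2 (Zfp318 ends, 2 µM), 2.97 and 1.18 (Zfp346 ends, 0.2 and 2 µM), 13 and 4.22 (Zfp57 body, 0.2 and 2 µM), and 30.9 and 20.3 (Zfp708 body, 0.2 and 2 µM). The Zfp708 body change at 0.2 µM was 0 with at least 5 and with at least 10 reads per CpG, Zfp628 ends at 10 against 2 µM gave -0.557 with at least 10 reads, and Zfp260 ends at 0.2 µM gave -31.7 with windows of 2000 bp. Leaving out the deepest CpGs changed none of the counts. Requiring more reads leaves fewer CpGs, and at 6 to 13 reads per CpG single sites were not read. With at least 5 reads the chromosome medians in DMSO were lower, except in bodies of chromosome 17, where 29.1% became 53.0%. Whether the CpGs kept are less methylated than those dropped was not tested. The counts with at least 5 or 10 reads are given without the number of members still tested.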
